A study of Mus musculus with 6 samples.

Results

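The genes described here are 10 components of Notch signalling in embryonic mouse pancreas: the receptor genes Notch1, Notch2 and Notch3, the ligand genes Dll1, Jag1 and Jag2, and the effector genes Hes1, Hey1, Hey2 and Heyl. They were taken by symbol from count tables of 23337 genes, and all 10 were found and passed the filter on low counts. RNA came from pancreas of NMRI mice at E13.5. Wildtype embryos gave the 3 control pools, and embryos labelled Prox1-nullyzygous, with both Prox1 alleles altered (Prox1 GFPCre/D), gave the 3 mutant pools. Each pool combined 5 to 6 pancreata of one genotype, so a library averages over embryos and over every cell type of the organ.

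Notch is a receptor that is cut after it binds a ligand on a neighbouring cell. The freed intracellular part enters the nucleus, joins the DNA-binding protein RBPJ and switches on repressors of the Hes and Hey families. In the pancreatic epithelium, Dll1 is made by cells entering the endocrine lineage under Neurog3, and Hes1 in their neighbours represses Neurog3, which keeps those cells as progenitors. In blood vessels, Notch signalling with Hey1 and Hey2 is known for arterial identity, and Notch3 with Heyl is known from pericytes and vascular smooth muscle.

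The members split by ligand and by effector. Dll1 was lower in mutants by 1.47-fold, while Jag1 was higher by 1.31-fold. Among effectors, Hey2 and Heyl were higher by 1.67-fold and 1.62-fold, and the main epithelial effector Hes1 was not called. Notch1 was higher by 1.19-fold, with a call that depended on single pools. In all, edgeR's quasi-likelihood test called 4 members higher, 1 lower and 5 not at all, where called means a Benjamini-Hochberg adjusted p under 0.05 over all genes tested. Over all 14687 genes tested, 7.95% were called, 3.67% higher and 4.28% lower. The median log2 fold change was 0.18 over the members and 0.00 over all genes, where log2 fold changes are mutant minus control. The 3 control and 3 mutant values did not overlap for 6 members (Notch1, Dll1, Jag1, Hey1, Hey2 and Heyl), against 26.4% of all genes tested. The members were chosen with earlier results of these data known, so these comparisons with all genes are a description only.

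Sequence upstream of the gene start is shown for the called members whose window held a motif of this pathway. RefSeq windows on GRCm38.p6, running from 250 bases before to 50 bases after the start, were found for 7 of the 10 members in 8 windows, with a pair for Dll1; Hes1, Hey1 and Heyl had no entry. Values by pool are given in the order of pools 1 to 3 throughout. The letters searched for on both strands were TGGGAA, the core of RBPJ sites, its extension GTGGGAA, which contains the core, and 3 motifs known to be bound by Hes or Hey proteins. These were the class C site CACGCG, the palindromic E-box CACGTG and, as a further variant, CACGAG. Hey2 alone among the 8 windows held GTGGGAA, and it held 2 copies, shown in capitals (chr10:30842781-30843033, minus strand, base -250 to base 3 counted from the start as base 1).

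Hey2: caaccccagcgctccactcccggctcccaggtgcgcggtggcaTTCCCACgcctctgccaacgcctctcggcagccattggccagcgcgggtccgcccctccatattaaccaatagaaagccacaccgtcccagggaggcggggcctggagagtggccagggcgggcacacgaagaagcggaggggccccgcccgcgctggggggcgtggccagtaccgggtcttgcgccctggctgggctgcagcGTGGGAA

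The upstream copy lies in reverse orientation at bases -207 to -201, and the other spans the start at bases -4 to 3. GTGGGAA was present in 6.38% of all 32851 windows and 2 or more copies in 0.256%. CACGCG was present in 9.27% of all windows and in 4 of the 8 member windows, those of Jag1, Jag2, Notch2 and Dll1. In Dll1 it lay at the more upstream of its 2 starts, where the end of the window matched no GENCODE transcript of Dll1. The opposite-strand gene A930024N18Rik (15375000 to 15379475) spans that window. The 8 member windows were 55.7% to 86% G and C, against a median of 52.7% over all windows, and CACGCG is itself rich in G and C. The Jag1 stretch (chr2:137116681-137116770, minus strand) and the Dll1 stretch (chr17:15376983-15377012, minus strand) are printed with CACGCG in capitals, in Jag1 once in each orientation.

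Jag1: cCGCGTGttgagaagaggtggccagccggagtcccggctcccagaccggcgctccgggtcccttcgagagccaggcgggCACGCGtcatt

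Dll1: cttaatgacagcCACGCGaacgacacacac

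Among the 8 windows, CACGAG was found in that of Notch3 and CACGTG in none, against 6.47% and 7.15% of all windows. The end of the Notch3 window matched no GENCODE transcript of Notch3. TGGGAA was present in 1 member window, that of Hey2, and in 25.6% of all windows. A match describes the letters in this window; no binding was measured.

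Library depth ran from 16060424 to 17633867 reads, so 1 CPM (the usual depth-scaled count, with TMM scaling) stood for 15.9 to 17.5 reads. The members took 19273 to 23840 reads per library. Prox1, the targeted gene, had 1764, 1687 and 1824 reads in the 3 control pools and 1330, 1774 and 1602 reads in the 3 mutant pools. Its groups overlapped, and the sources used here do not give the deleted segment, so this count does not check the labels. Xist was almost absent from control pool 3 and mutant pool 1 (9 and 2 reads) and present at 33297 to 47135 reads in the others. Control pool 2 held the smooth muscle genes Myh11 and Acta2 at 73.6 and 94.5 CPM, against no more than 4.36 and 23.4 CPM in control pools 1 and 3. The pancreatic tip gene Cpa1, at 1269 CPM in controls on average, and the endocrine gene Neurog3 were both present, and endothelial and pericyte markers were present in every pool. The cell type lists were chosen with earlier results of these data known, and several differed between the groups in summed CPM without overlap. The 5 genes listed for hepatocytes summed to 845.2 to 1317 CPM in controls and 266.2 to 331.4 CPM in mutants. Most of that sum was Serpina6 and Ttr, at 731.5 and 305.3 CPM over controls, while the defining hepatocyte gene Alb stood at 3.79 CPM. The 4 neutrophil genes summed to 4.48 to 4.73 and 26.6 to 60.8 CPM, and the 7 mesenchyme genes to 7719 to 8003 and 8661 to 10010 CPM. Of the 6 neuron and neural crest genes 5 were called lower, against 4.28% of all genes tested. The 5 macrophage and 5 lymphatic genes overlapped, with the lymphatic Ccl21a at 0 in every library. The part of these shifts in the values below was not tested. In bulk RNA, fewer cells of a type and less RNA per cell cannot be told apart.

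**Figure D1:**
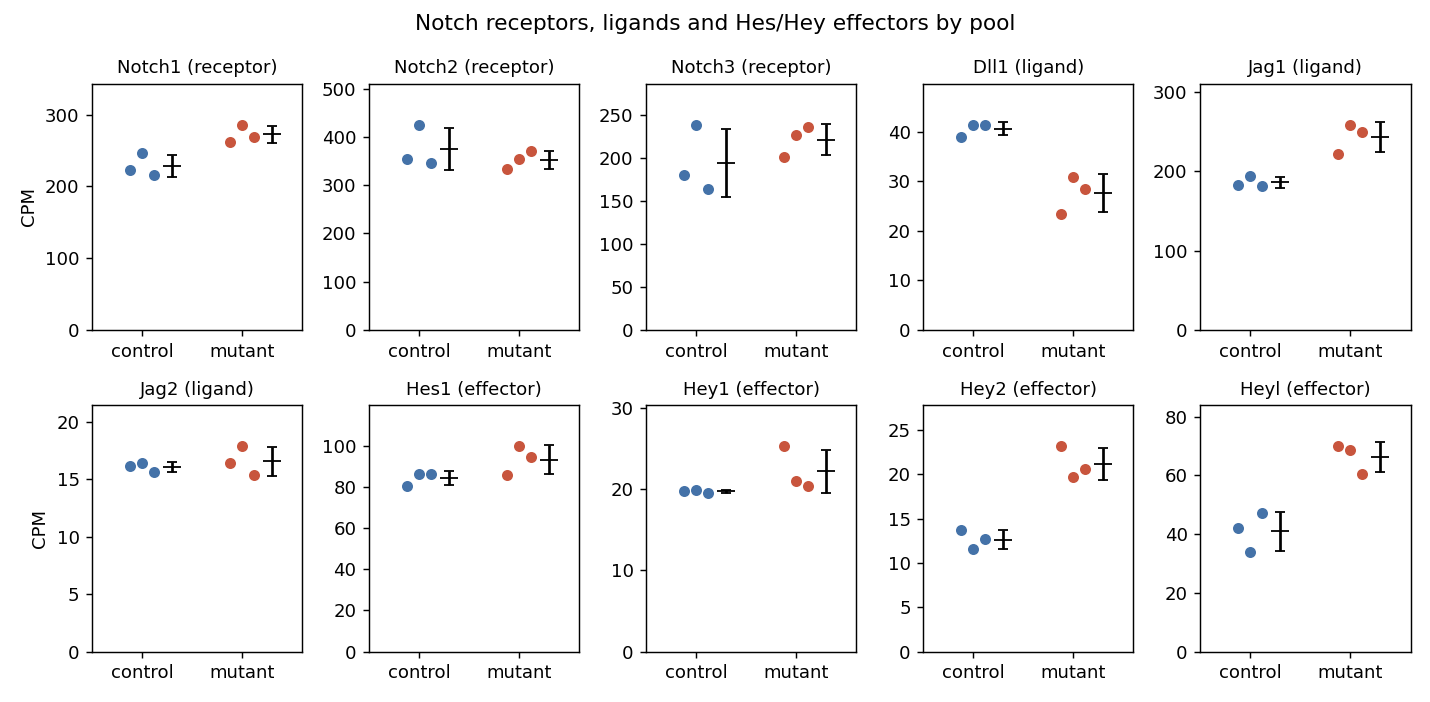
CPM of each of the 10 members in each pool (points; vertical axes start at 0), with the mean and SD over 3 pools beside each group. Dll1 is lower in every mutant pool than in any control pool, Notch1, Jag1, Hey1, Hey2 and Heyl are higher in every mutant pool, and the other 4 overlap.

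Levels can be compared between genes only per length, so CPM was divided by kilobases of annotated exon, merged over transcripts (CPM per kilobase). Notch1 was divided by 14232 bases, with 7639 coding bases annotated, and Notch3 by 8089 bases, with 6990 coding. The order of genes and the shares of length-scaled reads depend on this choice of length. In controls, Hes1 stood highest at 41.4 ± 1.66 (SD, n = 3), followed by Notch2 at 34.8 ± 4.07, Jag1 at 32.0 ± 1.16, Notch3 at 23.98 ± 4.878 and Notch1 at 16.04 ± 1.098. Below them came Dll1 at 9.62 ± 0.326, Heyl at 8.02 ± 1.29, Hey1 at 6.04 ± 0.0434, Hey2 at 2.75 ± 0.229 and Jag2 at 2.31 ± 0.0618. The only neighbours whose control pools overlapped were Notch2 and Jag1. In mutants the order changed at Jag1, Dll1 and Heyl. Jag1 stood at 41.7 ± 3.30 and overlapped Hes1 at 45.8 ± 3.45, Heyl at 13.0 ± 0.999 stood above Dll1, and Dll1 at 6.53 ± 0.899 overlapped Hey1 at 6.81 ± 0.814.

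**Figure D2:**
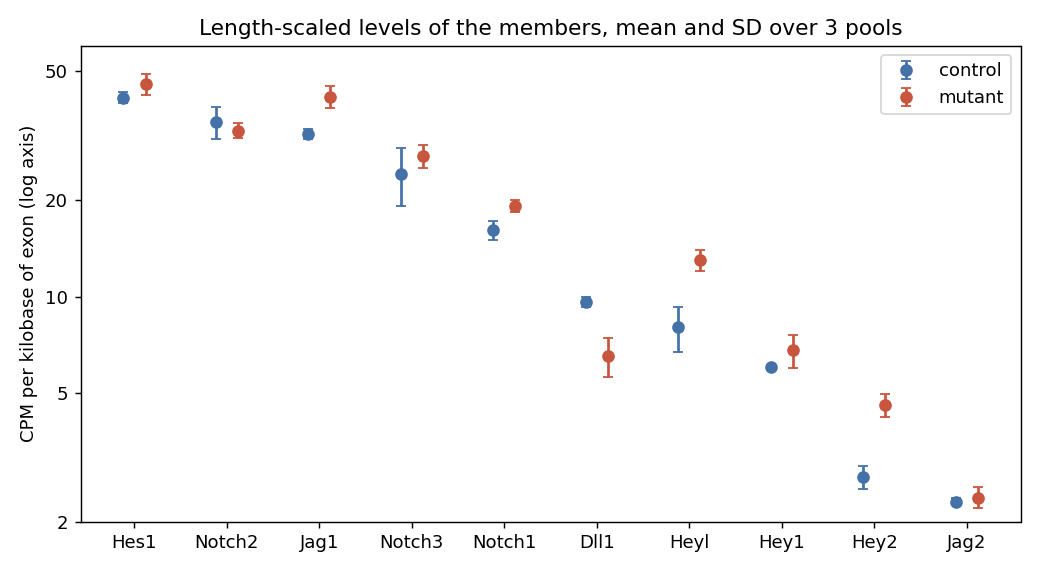
Length-scaled level of each member (CPM per kilobase of exon, log axis), mean and SD over 3 control and 3 mutant pools, ordered by the control level. Dll1 drops from 9.62 to 6.53 while Heyl rises from 8.02 to 13.0, so the order of this pair differs between the groups.

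Notch1, Notch2 and Notch3 encode single-pass receptors with long extracellular chains of EGF-like repeats. Notch1 (chromosome 2, 26457903 to 26516663, minus strand, GRCm38) stood at 222.5, 246.1 and 216.5 CPM in the 3 controls and at 262.7, 286.2 and 268.7 CPM in the 3 mutants. Every mutant pool lay above every control pool. Opposite-strand transcripts are annotated within Notch1, Notch3 and Dll1, and their reads cannot be told apart here. EdgeR put the log2 fold change of Notch1 at 0.26 (SE 0.057), with an adjusted p of 0.0274. Leaving out control pool 1 gave an adjusted p of 0.107 and ended the call, as did leaving out control pool 3 (0.0837), mutant pool 2 (0.107), mutant pool 3 (0.0709) or the pair nearly free of Xist (0.0859), while the log2 fold change stayed between 0.22 and 0.31 over all alternatives.

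Notch2 (chromosome 3, 98013527 to 98150361) was the receptor with the most reads. It stood at 354.9, 425.6 and 345.4 CPM in controls and at 333.3, 354.7 and 371 CPM in mutants, with control pool 2 highest and the groups overlapping. It was not called at -0.09 (95% interval -0.27 to 0.09). Notch3 (chromosome 17, 32120820 to 32166852) stood at 179.7, 238.6 and 163.6 CPM in controls and at 200.6, 226.8 and 235.6 CPM in mutants. Its highest value was again in control pool 2, the pool high in Myh11 and Acta2, and it was not called at 0.19 (SE 0.125, adjusted p = 0.458 by edgeR). Without control pool 2 the Notch3 log2 fold change was 0.36 (SE 0.071) and was called (adjusted p = 0.0157 by edgeR). The part of smooth muscle RNA in this difference was not tested.

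Notch2 held a smaller share of the receptor transcripts in mutants. Of the length-scaled reads of the 4 receptor genes, Notch2 held 44.85% ± 0.711 in controls and 39.58% ± 0.605 in mutants (SD, n = 3), and Notch1 held 20.8% ± 1.23 and 23.2% ± 0.966, both without overlap. Notch3 held 30.7% ± 2.149 in controls and 32.99% ± 1.18 in mutants, and Notch4 held 3.71% ± 0.257 and 4.27% ± 0.785, both with overlap. The ratio of Notch1 to Notch2 reads was 0.627, 0.578 and 0.627 in controls and 0.788, 0.807 and 0.724 in mutants, without overlap; this pair was chosen after its values were seen and has no test. Notch4, the receptor of endothelial cells, is no member and had a mean of 23.1 ± 1.41 CPM over controls and 28.3 ± 3.75 over mutants, not called at 0.29 (SE 0.1, adjusted p = 0.127 by edgeR).

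The ligand genes moved in opposite directions. Dll1, the Delta ligand of endocrine precursors (chromosome 17, 15367354 to 15376872, minus strand), had 653, 679 and 708 reads in the 3 control pools and 373, 525 and 495 reads in the 3 mutant pools. In CPM these were 38.99, 41.36 and 41.38 against 23.45, 30.9 and 28.3, with mutant pool 1 lowest and no overlap. EdgeR put the log2 fold change at -0.56 (SE 0.095), with an adjusted p of 0.00878, and the call held in all 16 alternatives, at -0.65 to -0.44.

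Jag1, a Jagged ligand of progenitor epithelium, vessels and mesenchyme (chromosome 2, 137081456 to 137116644, minus strand), had 3058, 3185 and 3115 reads in controls and 3524, 4391 and 4354 reads in mutants. Its mean was 186.2 ± 6.75 CPM over controls and 243.1 ± 19.3 over mutants (SD, n = 3), and the lowest mutant pool, at 221.6 CPM, lay above the highest control pool, at 194 CPM. EdgeR put the log2 fold change at 0.39 (SE 0.06), with an adjusted p of 0.00564, and Jag1 was called in all 16 alternatives. Of the 7 mesenchyme genes, Col1a1 at 0.31 (SE 0.065) and Barx1 at 0.39 were called higher and the other 5 were not called. Their summed CPM was highest in mutant pool 1, at 10010, where Jag1 was the lowest of the mutant pools, and their part in the Jag1 difference was not tested. Jag2, the other Jagged ligand (chromosome 12, 112907819 to 112929776), had 261 to 303 reads in every library and was not called at 0.04 (95% interval -0.16 to 0.24).

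The makeup of the ligand transcripts differed between the groups. There were 4.68, 4.69 and 4.4 reads of Jag1 for each read of Dll1 in control pools 1 to 3, and 9.45, 8.36 and 8.8 in mutant pools 1 to 3, a pair chosen after its values were seen. Of the length-scaled reads of 5 ligand genes (Dll1, Dll3, Dll4, Jag1 and Jag2), Jag1 held 62.1% ± 1.128 in controls and 72.7% ± 0.6515 in mutants, and Dll1 held 18.7% ± 0.375 and 11.35% ± 0.752 (SD, n = 3). Their summed level was 51.5 ± 1.26 CPM per kilobase in controls and 57.4 ± 4.21 in mutants, with overlapping groups.

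Outside the members, Dll3, a Delta ligand found in Neurog3-positive cells, fell from 60, 80 and 92 reads in controls to 31, 45 and 37 reads in mutants, a change of -1.04 on the log2 scale (SE 0.216, edgeR adjusted p = 0.0206). Leaving out control pool 3 ended this call (adjusted p = 0.0661), as did leaving out mutant pool 1 (0.0667), mutant pool 3 (0.0711) or the pair nearly free of Xist (0.134). Dll4, the Delta ligand of arterial endothelium, stood at 23.0 ± 1.17 CPM and 22.9 ± 0.6875 CPM and was not called at -0.01 (95% interval -0.17 to 0.15). The Dll4 interval excludes a change of the Dll1 size.

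Dll1 fell alongside the endocrine progenitor genes. All 6 listed markers, chosen with earlier results of these data known, were called lower, against 4.28% of all genes tested. Neurog3, the transcription factor that commits cells to the endocrine fate, had a log2 fold change of -1.09 (SE 0.118). The summed CPM of the 6 markers was 310.6 to 385 in controls and 184.7 to 201.8 in mutants. As a percentage of that sum, Dll1 was 11.5, 13.3 and 10.7 in controls and 12.1, 15.3 and 15.3 in mutants. The groups overlapped, and the ratio differed by 0.26 on the log2 scale (p = 0.2, two-sided exact permutation test, smallest possible p 0.1). The part of fewer endocrine progenitors in the lower Dll1 level was not tested.

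Hes1, the basic helix-loop-helix repressor of Neurog3 (chromosome 16, 30064384 to 30067796), had the highest length-scaled level of the members. It stood at 80.5, 86.3 and 86.4 CPM in controls and at 85.7, 99.6 and 94.35 CPM in mutants. Mutant pool 1 lay within the control range and the other mutant pools above it. Hes1 was not called at 0.14 (SE 0.063, 95% interval 0.00 to 0.29, adjusted p = 0.228 by edgeR) in the full set of libraries or in any of the 16 alternatives, with adjusted p between 0.102 and 0.549. The interval excludes a change of the Hey2 size. Per read of Neurog3 there were 0.563, 0.768 and 0.531 reads of Hes1 in controls and 1.29, 1.45 and 1.52 in mutants, a pair chosen after its values were seen; of its 2 genes, Neurog3 was the one called.

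The Hey genes encode repressors of the same structural class. Hey2, an effector of arterial endothelium and heart (chromosome 10, 30832359 to 30842801, minus strand), had 229, 190 and 217 reads in the 3 control pools and 368, 334 and 361 reads in the 3 mutant pools. These were 13.7, 11.6 and 12.7 CPM against 23.1, 19.7 and 20.65 CPM, so each mutant pool lay well above each control pool. The value of 0.74 on the log2 scale (SE 0.1, 95% interval 0.52 to 0.97, adjusted p = 0.00292 by edgeR) was the largest of the members, and it was called in all 16 alternatives at 0.67 to 0.80.

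Heyl (chromosome 4, 123233556 to 123249875) had 703, 558 and 805 reads in controls and 1111, 1168 and 1058 reads in mutants. In CPM these were 42.0, 34.0 and 47.0 against 69.9, 68.8 and 60.5, with control pool 2 lowest and no overlap. EdgeR put the log2 fold change at 0.69 (SE 0.11), with an adjusted p of 0.00611. The value lay between 0.57 without control pool 2 and 0.80 without control pool 3, and Heyl was called in all 16 alternatives. Hey1, the close relative of Hey2 (chromosome 3, 8663359 to 8667256, minus strand), stood at 19.8, 19.9 and 19.6 CPM in controls and at 25.3, 21.0 and 20.4 CPM in mutants. Its groups did not overlap, mutant pool 1 stood above the rest, and it was not called at 0.17 (SE 0.094, adjusted p = 0.358 by edgeR).

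The balance among effector transcripts shifted as well. Hey2 reads were 0.692, 0.583 and 0.648 times those of Hey1 in controls and 0.915, 0.938 and 1.01 times in mutants, a pair chosen after its values were seen. Of the length-scaled reads of Hes1, Hes6, Hey1, Hey2 and Heyl, Hes1 held 48.7% ± 1.72 in controls and 49.1% ± 2.88 in mutants (SD, n = 3). Heyl held 9.4% ± 1.3 and 13.9% ± 0.896, and Hey2 held 3.23% ± 0.295 and 4.96% ± 0.549. Hes6, a relative of Hes1 known to oppose it and expressed in endocrine precursors, went from 31.6% ± 0.4015 to 24.65% ± 0.887 of these reads. Hes6 itself was not called at -0.23 (SE 0.065, adjusted p = 0.0682 by edgeR), and was called only with total-count scaling (adjusted p = 0.0457 by edgeR).

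Of 6 listed arterial endothelial genes, a list chosen with earlier results of these data known, 3 were called higher and 0 lower. Their median log2 fold change was 0.41, and 3.67% of all genes tested were called higher. Gja5, encoding the arterial gap junction protein connexin 40, averaged 16.1 ± 2.42 CPM over controls and 31.2 ± 5.32 over mutants, a log2 fold change of 0.95 (SE 0.142). Gja4 at 0.51 (SE 0.114) and the netrin receptor gene Unc5b at 0.31 (SE 0.057) were called as well. Efnb2 at 0.24 (SE 0.088), Sox17 at 0.23 (SE 0.159) and Bmx at 0.89 (SE 0.268) were not called. Gja4 lost its call in 5 of the 16 alternatives and Unc5b in 2, without control pool 1 (edgeR adjusted p = 0.0564) and without both pools nearly free of Xist (0.0546). The 10 general blood endothelial genes gave 0 calls and log2 fold changes of 0.00 to 0.28.

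The summed CPM of those 10 endothelial genes was 676.2 to 757.9 in controls and 754.1 to 945.6 in mutants. Hey2 amounted to 1.8%, 1.59% and 1.88% of that sum in controls and 2.45%, 2.61% and 2.64% in mutants, without overlap. The ratio was 1.46-fold higher (p = 0.1, the smallest the two-sided exact permutation test can give). Relative to the summed arterial genes, a list taken after the values were seen, Hey2 was 1.29-fold higher, from 8.12% ± 0.517 to 10.5% ± 0.461 (SD, n = 3). Hey1 amounted to 2.75% ± 0.144 of the endothelial sum in controls and 2.69% ± 0.0883 in mutants, with overlapping groups (p = 0.6, two-sided exact permutation test). The part of arterial cell number in the higher Hey2 level was not tested.

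Some pericyte genes were higher in mutants, as Heyl was. This marker list was chosen with earlier results of these data known, and 3.67% of all genes tested were called higher. Of the 8 listed genes of pericytes and smooth muscle, 3 were called higher and 0 lower. These were Cspg4, encoding the NG2 proteoglycan, at 0.63 (SE 0.063), and Kcnj8 and Abcc9, encoding the ATP-sensitive potassium channel subunits of mural cells, at 0.64 (SE 0.097) and 0.64 (SE 0.073). Within each group their order differed from that of Heyl. Among controls, Heyl was highest in pool 3, where Cspg4, Kcnj8 and Abcc9 were each lowest. Among mutants, Heyl was highest in pool 1, where these 3 genes were again each lowest. The pericyte gene Rgs5 was not called at 0.02 (SE 0.086), nor were Pdgfrb at 0.17 (SE 0.051) and Tagln at 0.32 (SE 0.238). Myh11 at -2.73 (95% interval -5.35 to -0.11) and Acta2 at 0.01 (95% interval -1.13 to 1.14) were not called. Control pool 2 was the highest library for both, at 73.6 CPM of Myh11 against at most 6.54 elsewhere, and at 94.5 CPM of Acta2 against at most 58.0 elsewhere. The summed CPM of the 8 genes was 636.6 to 865.5 in controls and 900.8 to 942.2 in mutants.

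Heyl amounted to 5.93%, 3.93% and 7.39% of that sum in controls and 7.76%, 7.42% and 6.42% in mutants, with overlap (p = 0.2, two-sided exact permutation test). Relative to Cspg4, Kcnj8 and Abcc9 alone, chosen after the values were seen, it was 13.3%, 10.7% and 17.2% in controls and 16.1%, 14.1% and 12.3% in mutants, a ratio of 1.04. The groups overlapped on that scale. Notch3 went from 26.2% ± 1.17 to 23.9% ± 1.45 of the 8-gene sum (SD, n = 3; p = 0.1, two-sided exact permutation test). Relative to Cspg4, Kcnj8 and Abcc9 alone, Notch3 was 57%, 75.3% and 60% in controls and 46.3%, 46.6% and 47.9% in mutants, a ratio of 0.738 without overlap. Those 3 genes are the ones called higher among the 8, so the Heyl and Notch3 ratios to them depend on that choice. A larger number of pericytes and more Heyl per pericyte cannot be told apart.

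Among the members set against epithelial genes, Jag1 amounted to 11.8%, 13.7% and 10.2% of 6 summed epithelial markers in controls and 17.2%, 18.3% and 18.8% in mutants (1.53-fold). Notch1 was 1.4-fold and Hes1 1.3-fold higher on this scale, each without overlap and each with p = 0.1 by the two-sided exact permutation test, the smallest it can give. The denominator moved too, as the summed markers ran from 1417 to 1784 CPM in controls and from 1292 to 1410 CPM in mutants. Of the 6 markers, Cdh1 at -0.42 (SE 0.074) and Cldn3 at -0.48 (SE 0.081) were called lower. Epcam at -0.18 (SE 0.095), Krt8 at -0.24 (SE 0.121) and Cldn6 at -0.09 (SE 0.071) were not called. Krt18 went the other way at 0.21 (SE 0.137) and was not called either. Notch2 at 1.11-fold overlapped.

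**Figure D3:**
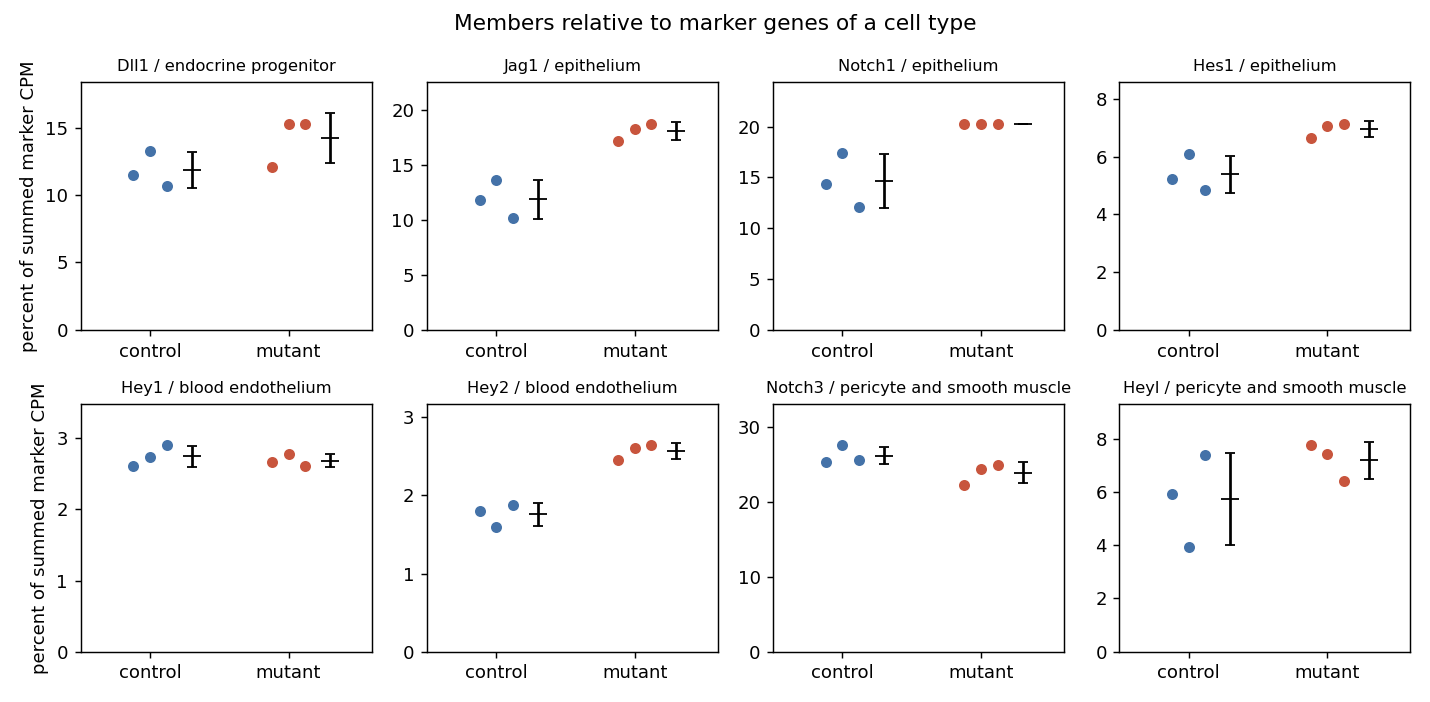
CPM of 8 members as a percentage of the summed CPM of a marker list, by pool (points), with mean and SD over 3 pools. Jag1, Notch1, Hes1 and Hey2 are higher in every mutant pool, Notch3 is lower, and Dll1, Hey1 and Heyl overlap between groups.

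Of 61 other pathway genes tested, 3 were called higher, 3 lower and 55 not called, with a median log2 fold change of -0.06. The share called was 9.84%, near the 7.95% of all genes tested. None of the 10 genes of receptor cleavage was called. Their most abundant member Adam10, the protease that makes the first ligand-induced cut, stood at 0.07 (SE 0.053), and the gamma-secretase subunit gene Ncstn at -0.13 (SE 0.04, adjusted p = 0.101 by edgeR). The 10 log2 fold changes lay between -0.13 and 0.07.

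Of 15 genes that modify ligands or receptors, 1 was called. Dtx4, encoding an E3 ubiquitin ligase of the Deltex family, had a value of -0.30 on the log2 scale (SE 0.068, edgeR adjusted p = 0.0294). The fringe gene Lfng at -0.07 (SE 0.057), the ligand-activating ligase gene Mib1 at -0.06 (SE 0.041) and the receptor fucosyltransferase gene Pofut1 at 0.15 (SE 0.043, adjusted p = 0.0799 by edgeR) were not called. Of 21 genes of the nuclear complex and its corepressors, the coactivator gene Maml2 at 0.29 (SE 0.064) and the Groucho corepressor gene Tle4 at 0.33 (SE 0.069) were called higher. Rbpj itself stood at 47.8 ± 4.84 CPM and 53.95 ± 8.58 CPM and was not called at 0.17 (SE 0.115).

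Of 8 other genes listed as Notch targets, Nrip1, encoding a nuclear receptor corepressor, was called lower at -0.24 (SE 0.056). Nrarp, the feedback inhibitor that Notch induces in many tissues, was not called at -0.16 (SE 0.053, adjusted p = 0.115 by edgeR), with 1067, 1056 and 1120 reads in controls and 942, 1009 and 956 in mutants. Sox9, a progenitor factor, stood at -0.24 (SE 0.072, adjusted p = 0.0776 by edgeR). Hes5, Hes7, Hes2 and Hes3 had at most 12 reads in any library and were not tested.

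Dlk1, a non-canonical ligand that lacks the receptor-activating domain, was the most abundant pathway gene. It rose from 1719 ± 54.1 to 2030 ± 93.9 CPM (SD, n = 3), a change of 0.24 on the log2 scale (SE 0.051, edgeR adjusted p = 0.0232). Of the 16 alternatives, the call was lost in 3 for Dlk1, 6 for Dtx4, 4 for Tle4, 7 for Maml2 and 7 for Nrip1, with the highest adjusted p between 0.0934 for Dtx4 and 0.137 for Maml2 by edgeR.

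**Figure D4:**
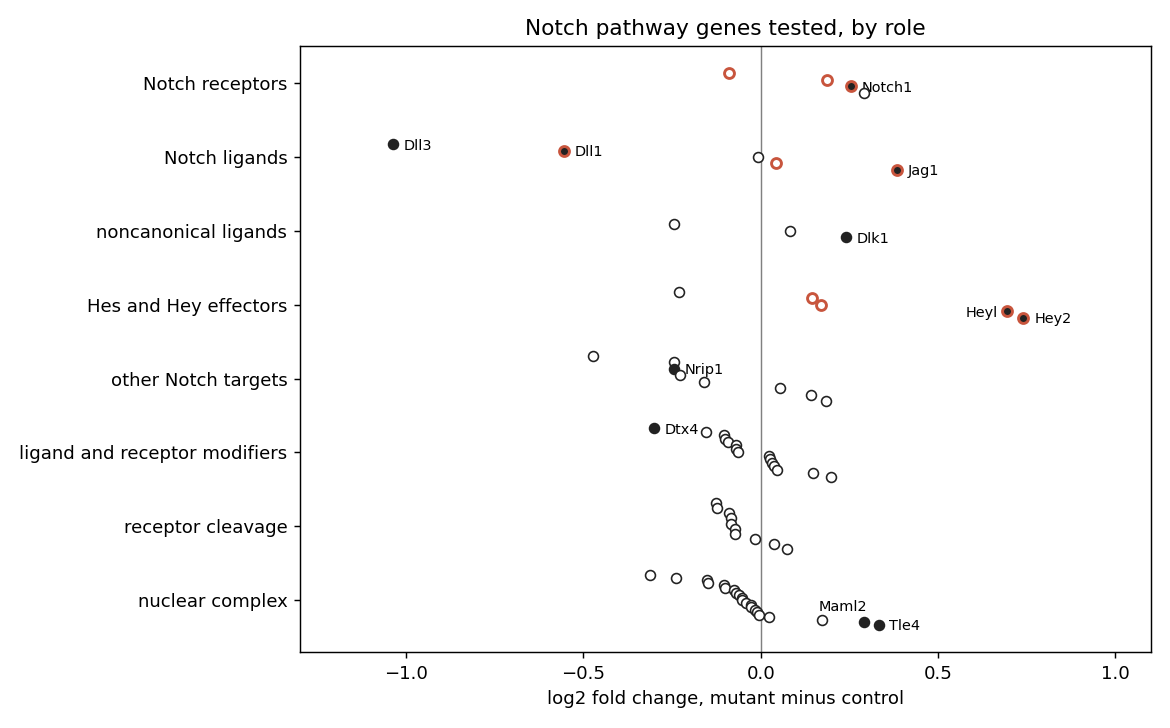
Log2 fold change (mutant minus control) of each tested Notch pathway gene, 1 point per gene, in rows by role; filled points were called by edgeR and are named, and members have a red outline. Dll3 and Dll1 lie farthest left among called genes and Hey2 and Heyl farthest right, while the 10 receptor cleavage genes lie between -0.13 and 0.07.

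Across the 6 libraries, the genes whose centred log2 CPM lay nearest to each called member were Tmem2, Stx2 and Raver2 for Notch1, Cldn3, Pmel and Dact2 for Dll1, and Rprm, Pdzrn3 and Tiam1 for Jag1. For Hey2 they were Slco2a1, Gpr64 and Il17re, and for Heyl they were Plac1, Oasl2 and Mpzl2. Root mean square distances ran from 0.024 (Tmem2 to Notch1) to 0.074 (Mpzl2 to Heyl) on the log2 scale over 6 libraries. Of these genes, Pmel, Raver2 and Oasl2 were not called (adjusted p = 0.115, 0.101 and 0.0799 by edgeR). The neighbours were picked from 14687 genes on values that hold the group difference, so they are a description only.

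**Figure D5:**
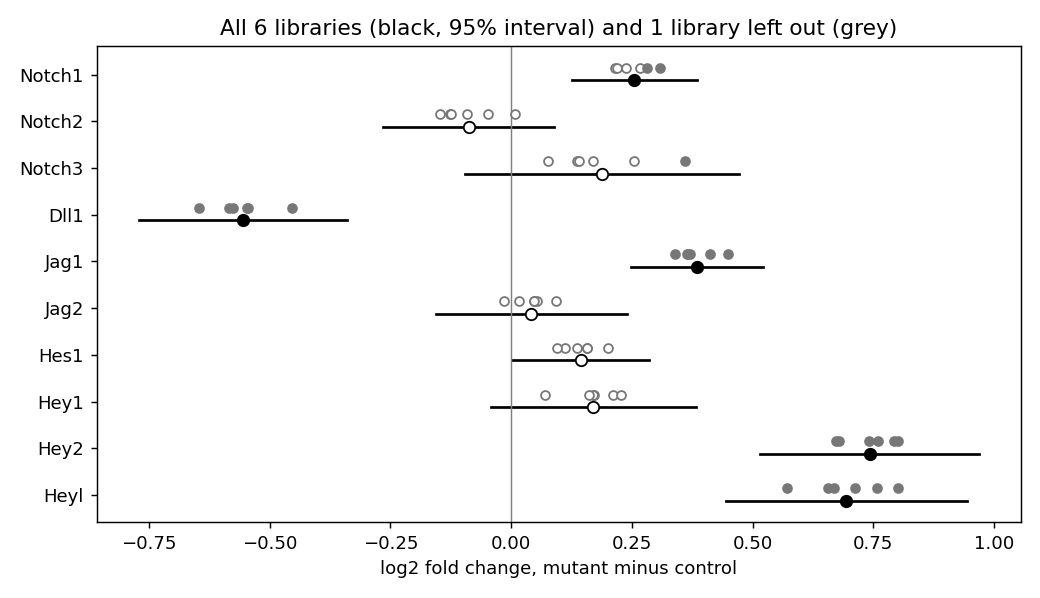
Log2 fold change of each member with all 6 libraries (black, with the 95% interval) and with 1 library left out (grey); filled points were called by edgeR. Dll1, Jag1, Hey2 and Heyl stay filled throughout, Notch1 turns open in 4 of the 6 fits, and Notch3 turns filled in 1.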

How the data were processed

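The authors deposited whole-number read counts per gene symbol for 6 libraries. The submitters' processing notes list HTSeq 0.6.1p1, STAR, DESeq2, cutadapt 1.13 and build mm10. Annotation, strand setting and multi-mapping rules are not given in these sources. GENCODE M21 annotates opposite-strand transcripts within Notch1, Notch3 and Dll1, whose reads cannot be told apart without strand. Counts were tested with edgeR 4.0.16 (R 4.3.3): filterByExpr with a minimum count of 10, TMM scaling, quasi-likelihood F test on genotype, Benjamini-Hochberg adjustment. SE is the coefficient over the square root of F, with t intervals. CPM uses the library total times the TMM factor, and exon lengths and positions come from GENCODE M21 (GRCm38). The test was run on simulated data first. Alternatives used other scalings and filters, DESeq2 1.42.0, limma 3.58.1 voom, robust estimation, a replicate block and left-out libraries. Members, gene lists and alternatives were chosen with earlier results of these data known. All 10 members were named, with every other pathway gene called and examples of each list by abundance or smallest adjusted p. Further genes named as examples were chosen after their values were seen. Of 164 listed symbols, 163 matched directly and 1 by an older symbol. Where nothing says that pools came from separate litters, p-values measure the spread between these pools. No pool was a copy of another: the chi-square per degree of freedom between pools of a group was 3.54 to 12.8.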

Additional observations from a re-analysis of the deposited data

How the results depend on the processing

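The calls of Dll1, Jag1, Hey2 and Heyl kept their direction and stayed under the threshold in all 16 alternatives. Members called higher numbered 3 to 5 and members called lower 1 when each library was left out, and 3 and 1 without both pools that lacked Xist. All genes called numbered 629 to 1421 with 1 library left out and 665 without both of those pools, where fewer samples were fitted. Pathway genes with the members included, 7 called higher and 4 lower in all libraries, numbered 3 to 8 higher and 1 to 5 lower with 1 library left out, and 4 and 2 without both pools. Uncalled values near 0 changed sign with 1 library left out: Dll4 ran from -0.0543 to 0.0119, Jag2 from -0.0157 to 0.0924, Notch2 from -0.148 to 0.00733 and the log2 ratio of Hey1 to the endothelial sum from -0.067 to 0.00857. The positive Notch2 value came without control pool 2, and the cause of these sign changes was not tested. Total-count scaling moved the median log2 fold change of all genes to -0.03 and changed no member call. Between pools of equal replicate number the correlations of deviations were 0.138, 0.101 and -0.0497, and between the other pools they ran from -0.234 to 0.159. With 3 pools per group, these values cannot decide whether equal numbers mark a shared litter or day. With the replicate number as a block, 1138 genes were called, with 4 members higher and 1 lower. Dtx4, Maml2 and Nrip1 lost their calls in that fit, while Sox9 was called. Mutant pool 3 correlated best with control pool 2. With 190 to 368 reads per library, counting error limits Hey2 more than the receptors.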
